A study of Owenia fusiformis with 11 samples.

Results

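Owenia fusiformis is an annelid that develops through a mitraria, a planktonic larva that feeds for weeks before it metamorphoses. The comparison described here sets the gastrula (9 h post-fertilization) against the competent larva (3 weeks). They are the first and the last of the 4 ATAC-seq stages in this series. Each change is followed through the 2 stages between them, axial elongation (13 h) and the mature mitraria larva (27 h). The study also profiled the blastula by ATAC-seq, which is not among these samples. The members are the consensus peaks of the deposited accessibility table that were above 0 in at least 1 library: 61869 of 63732 peaks were kept, and the 1863 (2.92%) listed at 0 in all 8 libraries were left out. The net change was taken between 4 of the 8 ATAC-seq libraries, while its test drew its variance from all 8. The series holds 11 samples in all. Every library came from about 50000 cells of pooled whole animals, approximately 500 gastrulae, 300 elongating embryos, 150 mature larvae or 40 competent larvae, and each stage had 2 replicates. The labels give no treatment and no genetic change for any group.

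ATAC-seq uses the transposase Tn5, which cuts and tags DNA that is not covered by nucleosomes, so that reads pile up as peaks at open promoters and enhancers. During development such elements open as transcription factors bind them and close when they are no longer in use, and each cell type carries its own set. Between the gastrula and the competent larva an annelid forms its gut, muscles, nervous system and ciliary bands, and in this species the trunk rudiment of the juvenile grows inside the larva. The libraries here were made from whole animals, so more cells of a type and more accessibility per cell cannot be told apart in any of the results. The peaks carry no gene names in the files used here, and for that reason they are given by their identifiers and their positions on the scaffolds of the authors' assembly, counted from 1, and no stage could be checked against marker genes.

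The values were reads per peak after the authors' normalization, referred to as normalized reads. The kept peaks covered 47.5 Mb with a median width of 615 bp, and 58697 of them (94.9%) were above 0 in all 8 libraries. The reads in consensus peaks, recovered approximately from the steps between low values, numbered 7954347 to 44690981 per library, and the competent larva had both the lowest depth (replicate 1) and a depth of 26226768 (replicate 2), against 12564850 and 9796022 in the gastrula. The median peak held about 71.8 reads in the shallowest library, so peaks well below the median rest on few reads there. Per the study's methods 1 gastrula library and all libraries of elongation and the mature larva were sequenced on one platform, and the other gastrula library and both competent larva libraries on another with longer reads, which were trimmed to the same length. The sources do not say which gastrula library this was, and values against each are therefore given below. The platform changes between the mature and the competent larva, so in that interval platform and stage cannot be told apart. The lists of peaks called in single libraries had a conflict of labels, since the gastrula samples are linked to lists named for elongation and the elongation samples to lists named for the gastrula. The values of the table follow the names of the lists rather than their links: of the 748 peaks higher at elongation than in the gastrula, 96.1% were in both gastrula-linked lists and 32.4% in both elongation-linked lists, and of the 310 lower at elongation, 72.3% and 88.4% (81.7% and 39.5% of all kept peaks). Results from the lists are given under both assignments.

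Across the whole span 28009 peaks, 45.3% of the 61869 tested, differed between gastrula and competent larva in limma's moderated test on log2(normalized reads + 1), at an adjusted p under 0.05 (Benjamini-Hochberg over all kept peaks). Of these, 9705 opened (15.7% of all peaks) and 18304 closed (29.6%). The median log2 change was 1.10 for the peaks that opened (interquartile range 0.80 to 1.52) and -0.94 for those that closed (-1.21 to -0.75), so the changed peaks were commonly around 2-fold apart. Changes of more than 2-fold numbered 5583 upward (9.02%) and 7933 downward (12.8%). Beyond 4-fold the order was the other way round, with 910 opening peaks (1.47%) and 749 closing peaks (1.21%). The replicates of the stages did not overlap at 9701 of the 9705 opening and 18279 of the 18304 closing peaks, which is a description, since these libraries chose the peaks. Over all kept peaks, called or not, both competent larva libraries lay above both gastrula libraries at 22.5% and below them at 47.6%.

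The balance between opening and closing depended on the scale on which the libraries were compared. With the authors' normalization the median peak fell by 0.32 on the log2 scale between gastrula and competent larva, and 34.6% of the called peaks opened. When the 8 libraries were set to a common median of peaks instead, that shift became -0.07 and 55.0% of 23090 called peaks opened, 12689 (20.5%) against 10401 (16.8%). All 9705 opening peaks and 10401 of the closing peaks were called in the same direction on both scales, and no called peak changed direction. The common median moves every net log2 change up by the same amount. That all openings were kept and no call turned is therefore largely fixed by the rescaling, here and over 2-fold. Over 2-fold, the common median gave 7748 opening (12.5%) and 4027 closing peaks (6.51%). The 5583 openings of the authors' scale were all among the former, whereas 3906 of its 7933 closings were not among the latter. Beyond 4-fold the common median gave 1525 openings and 419 closings.

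**Figure D1:**
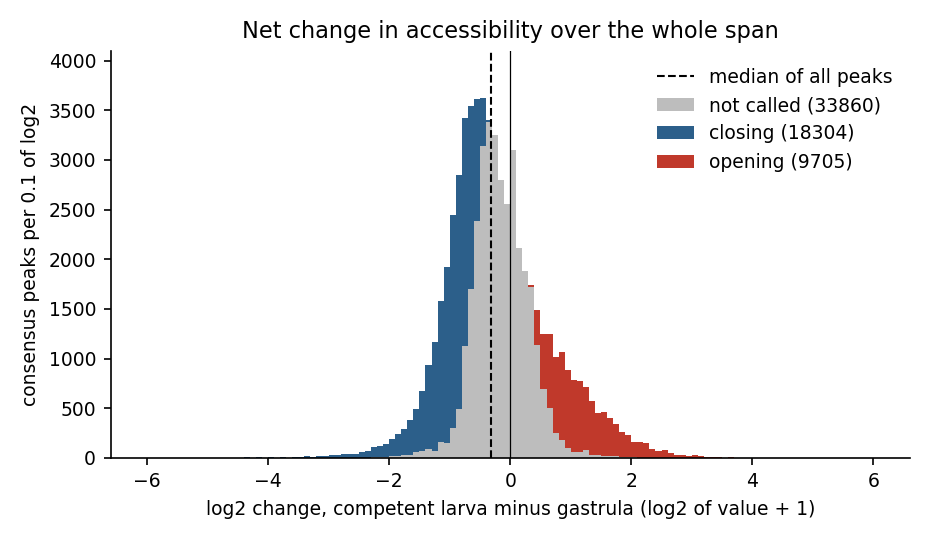
Number of consensus peaks (vertical axis) by log2 change in normalized reads from gastrula to competent larva (horizontal axis), with 9705 opening, 18304 closing and the uncalled peaks stacked. The dashed line marks the median of all peaks at -0.32, and the closing peaks lie close to the bulk whereas the opening peaks form a longer shoulder to the right.

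The upper part of the distribution also differed by stage within each library. The tenth of peaks with the highest values held 37.7% and 35.4% of the normalized reads in the gastrula libraries, 39.1% and 38.1% at elongation, 42.3% and 40.3% in mature larvae and 43.2% and 42.3% in competent larvae. This share was lower in both gastrula libraries than in all 6 others. The median peak had 194 and 205 normalized reads in the gastrula against 173 and 164 in the competent larva, although the sums over all peaks overlapped between the stages.

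The size of the change against each library is given as a description, since these libraries chose the peaks. Of the 5583 peaks that opened more than 2-fold, 93.4% were more than 2-fold higher in the competent larva mean than in gastrula replicate 1 and 83.0% than in replicate 2. For the 7933 closing peaks these shares were 85.4% and 84.3%. Against the gastrula mean, 96.0% of the opening peaks were over 2-fold higher in competent larva replicate 1 and 90.0% in replicate 2, and 84.3% and 83.2% of the closing peaks were over 2-fold lower. The replicates of a stage differed by more than 2-fold at 4263 peaks in the gastrula (6.89%) and at 2774 in the competent larva (4.48%), whereas the means of the 2 stages did so at 14566 peaks (23.5%).

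The 5 largest openings among peaks with a mean of at least 50 normalized reads over the 8 libraries were between 16.5-fold and 20.0-fold. OFUS_peak_37133 (scaffold 11, 11785072 to 11785368) had 23.5 and 34.8 normalized reads in the gastrula, 109.8 and 72.0 at elongation, 174 and 221 in the mature larva and then 643 and 541 in the competent larva. No libraries of successive stages overlapped, and the peak opened at each step. Its net change was 4.32 ± 0.29 on the log2 scale (SE, n = 2 per stage, limma adjusted p = 1.86e-07), with interval changes of 1.60, 1.13 and 1.58 (adjusted p = 0.0137, 0.0233 and 0.00246).

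OFUS_peak_37801 (scaffold 11, 18457080 to 18457411) followed a different course. It had 29.4 and 7.71 normalized reads in the gastrula, 25.3 and 34.4 at elongation, 32.9 and 27.6 in the mature larva and then 296 and 342 in the competent larva. The 6 earlier libraries overlapped one another and only the competent larva stood apart, with a net log2 change of 4.30 ± 0.49 (adjusted p = 1.20e-05) of which 3.36 ± 0.49 fell after the mature larva (adjusted p = 0.000522). OFUS_peak_31933 (scaffold 9, 7117554 to 7117905) also stood apart in the competent larva, with 10.3 and 46.3 in the gastrula, 26.2 and 26.6 at elongation, 49.3 and 57.6 in the mature larva and then 462 and 343 in the competent larva (net log2 change 4.11 ± 0.51, adjusted p = 2.34e-05).

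OFUS_peak_48113 (scaffold 16, 4220970 to 4221279) opened in 2 steps. Its values were 10.3 and 21.2 in the gastrula, 22.5 and 25.4 at elongation, 106 and 108 in the mature larva and then 241 and 355 in the competent larva. The last 2 intervals both passed the test (log2 changes 2.12 and 1.44, adjusted p = 0.00373 and 0.0206) and the first did not (0.65, adjusted p = 0.371). The fifth peak, OFUS_peak_36823 (scaffold 11, 8963878 to 8964793), rose from 88.2 and 9.66 to 533 and 483, and its gastrula libraries differed more from each other than those of the other 4. Its log2 change of 4.04 was 5.58 without gastrula replicate 1 and 2.51 without replicate 2, and its call was lost when the 4 end-stage libraries were fitted alone (adjusted p = 0.0759). Gastrula replicates also moved OFUS_peak_37801 (5.20 without replicate 1, 3.39 without replicate 2) and OFUS_peak_31933 (3.08 and 5.15), with both calls kept.

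The 5 largest closings were between 20.2-fold and 24.4-fold, with SEs of their log2 change between 0.38 and 0.76 (0.29 to 0.63 for the 5 openings). OFUS_peak_6237 (scaffold 2, 18348782 to 18349542) had 147 and 730.5 normalized reads in the gastrula, 382 and 47.3 at elongation, 116 and 94.5 in the mature larva and then 9.60 and 16.2 in the competent larva. All 6 earlier libraries lay above both competent larva libraries, although the gastrula and elongation replicates were each several-fold apart. Its net log2 change was -4.61 ± 0.76 (adjusted p = 0.000276), and the change after the mature larva was the only interval that passed the test (-2.97 ± 0.76, adjusted p = 0.0174). Without gastrula replicate 1 the net change was -5.76, and without replicate 2 -3.45.

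OFUS_peak_28781 (scaffold 8, 8762270 to 8762477) closed over the span without a dominant step. It had 379 and 584 in the gastrula, 126 and 204 at elongation, 74.4 and 39.5 in the mature larva and then 9.60 and 46.7 in the competent larva. The intervals took 35.3%, 35.2% and 29.6% of its net log2 change of -4.39 ± 0.54 (adjusted p = 2.28e-05), and none of them passed the test alone. The net change was -3.31 without competent larva replicate 1 and -5.48 without replicate 2. OFUS_peak_14789 (scaffold 4, 15167786 to 15167922) had 175 and 125 in the gastrula, 81.4 and 112 at elongation, 46.4 and 45.7 in the mature larva and then 4.82 and 8.15 in the competent larva, with no overlap between successive stages and 61.8% of its net change of -4.35 ± 0.38 (adjusted p = 1.39e-06) in the last interval.

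OFUS_peak_54753 (scaffold 21, 6571376 to 6571939) did not fall steadily. It had 466 and 448 in the gastrula, 65.6 and 18.0 at elongation, 142 and 183 in the mature larva and then 69.7 and 6.10 in the competent larva. The fall to elongation (log2 change -3.69, adjusted p = 0.0258) and the fall after the mature larva (-2.86, adjusted p = 0.0201) passed the test, whereas the rise between them did not (2.19, adjusted p = 0.0804). OFUS_peak_20255 (scaffold 5, 26035672 to 26035850) had 475 and 67.7 in the gastrula, 272 and 517 at elongation, 285.5 and 190.1 in the mature larva and then 7.195 and 8.79 in the competent larva, so that its closing fell after the mature larva (log2 change -4.71 ± 0.61, adjusted p = 0.00025) and its 6 earlier libraries overlapped. The net change of OFUS_peak_54753, -4.35, was -6.01 without competent larva replicate 1 and -2.70 without replicate 2, and that of OFUS_peak_20255, -4.34, was -2.94 without gastrula replicate 1 and -5.73 without replicate 2. Both calls were lost with the 4 end-stage libraries alone (adjusted p = 0.0766 and 0.0594).

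**Figure D2:**
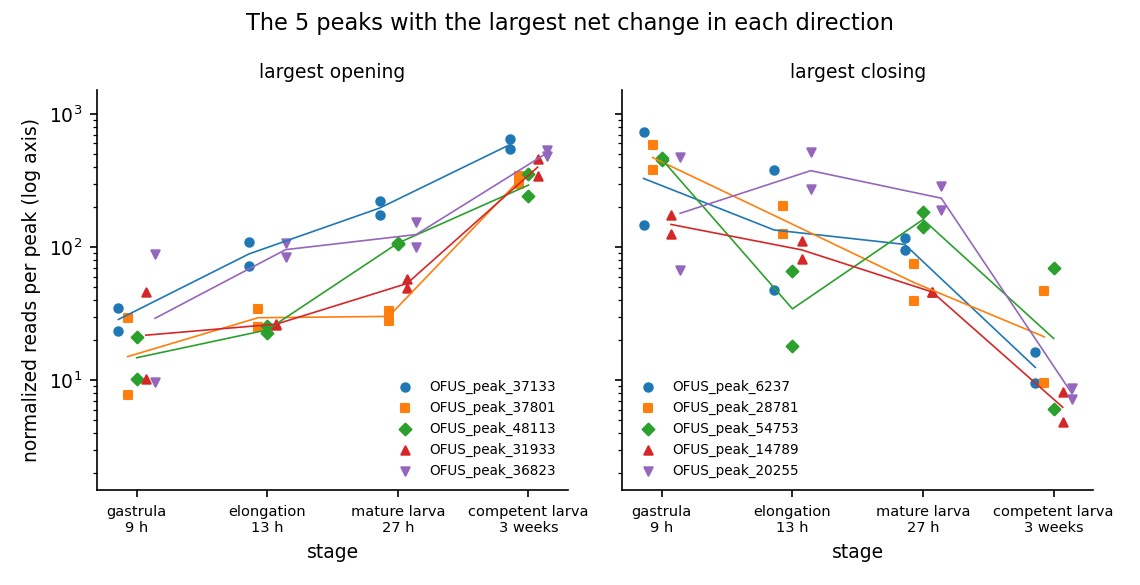
Normalized reads per peak on a log axis at the 4 stages for the 5 most strongly opening peaks and the 5 most strongly closing peaks, each library as a point and the geometric mean of a stage joined by lines. The opening peaks reach 241 to 643 in the competent larva from at most 88.2 in the gastrula, and the closing peaks end between 4.82 and 69.7.

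Each net change was divided over the 3 intervals, which last 4 h (gastrula to elongation), 14 h (elongation to mature larva) and nearly 3 weeks (mature to competent larva). The intervals add up to the net change on the log2 scale, and each peak was assigned to the interval with its largest share. Among the 9705 opening peaks the assignment went to the first interval for 1414 (14.6%), to the second for 3484 (35.9%) and to the last for 4807 (49.5%). When replicate 1 of every stage and replicate 2 of every stage were used alone, the shares differed by an SD of 3.25, 2.67 and 0.579 percentage points. Both gave the same order of the 3 intervals. These SDs rest on 1 matching of the replicates and do not measure their full spread. Leaving out single libraries moved the last share between 45.7% and 54.8%. The last interval is also the step at which the platform changes, and its part in the share was not tested.

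Opening was later still among the larger changes. The last interval was the largest for 54.9% of the 5583 peaks that opened more than 2-fold and for 61.0% of the 910 that opened more than 4-fold, with 12.8% and 13.4% in the first interval. On the common-median scale the corresponding shares of the last interval were 51.4% and 58.3%. The course of the medians was the same: peaks that opened more than 2-fold had medians of 157 and 189 normalized reads in the gastrula libraries, 176 and 203 at elongation, 276 and 281 in the mature larva and then 505 and 480 in the competent larva. Only 11.7% of these peaks had made at least 50% of their net change by elongation, 37.0% first reached it by the mature larva and 51.3% only in the competent larva.

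The early part of closing was not resolved by 2 replicates. Among the 18304 closing peaks the largest share fell in the first interval for 34.6%, the second for 28.1% and the last for 37.3%. On the common-median scale the shares were 20.9%, 35.5% and 43.6%, with the first 2 intervals in the other order. The replicates disagreed on the first 2 intervals, with 23.6% and 39.3% from replicate 1 alone against 43.2% and 21.7% from replicate 2 alone (SD 13.9 and 12.4 percentage points), whereas they gave 37.1% and 35.0% for the last (SD 1.48). No order of the 3 intervals can therefore be given for the closing peaks as a whole. The last interval held a larger share of the opening peaks than of the closing peaks in both replicates, 48.1% against 37.1% and 47.3% against 35.0%, but the difference was small on the common-median scale, 44.7% against 43.6%.

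Among the strongest closings the second interval held the largest share. Of the 749 peaks that closed more than 4-fold, 50.9% had their largest share between elongation and the mature larva, 33.8% after it and 15.4% before it, and each replicate alone placed the second interval first (48.1% and 54.7%). On the common-median scale 419 peaks closed that strongly, 56.3% of them mainly in the second interval. The medians of the 749 peaks went from 269 and 218 normalized reads in the gastrula and 178 and 160 at elongation to 76.3 and 79.0 by the mature larva and to 38.5 and 50.9 by the competent larva. At least 50% of the net change had been made by the mature larva at 75.7% of these peaks, compared with 45.3% of the peaks that opened more than 4-fold. Closing beyond 2-fold lay between in the share of the second interval (34.7%), with 27.7% in the first and 37.6% in the last. The order of the second and the last turned on the common-median scale (43.4% and 40.6%). The replicates disagreed on the leading interval. Replicate 1 alone gave 18.2%, 42.9% and 38.9% from first to last, and replicate 2 alone gave 37.9%, 28.6% and 33.5%. No order of the intervals can therefore be given for closing beyond 2-fold.

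**Figure D3:**
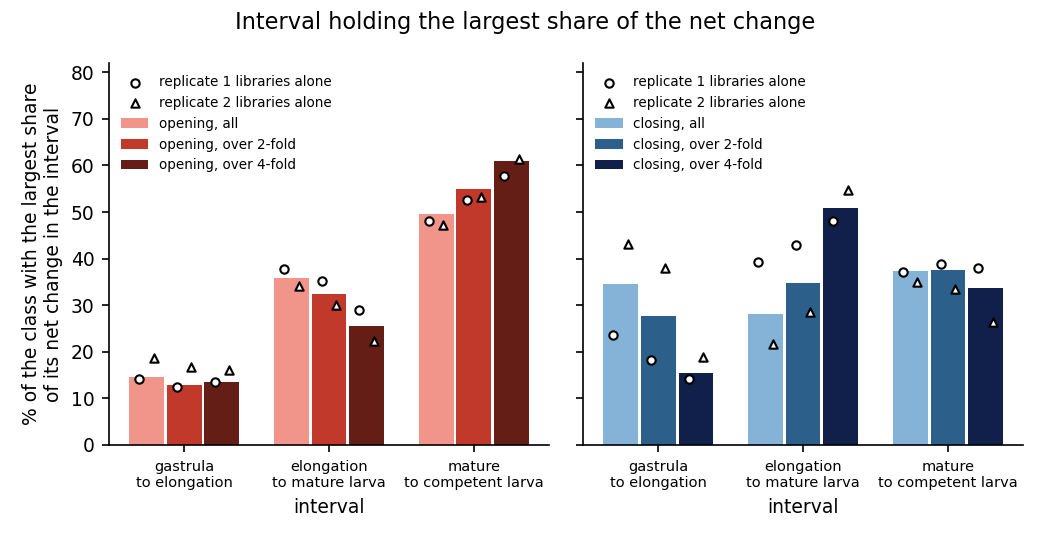
Percent of the opening (left) and closing (right) peaks whose largest share of the net change falls in each interval, for all called peaks and those beyond 2-fold and 4-fold, with circles and triangles for the replicate 1 and replicate 2 libraries alone. Opening peaks weigh toward the last interval, up to 61.0% beyond 4-fold, closing beyond 4-fold weighs toward the second interval at 50.9%, and the replicates differ most for the first interval of closing (23.6% and 43.2%).

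**Figure D4:**
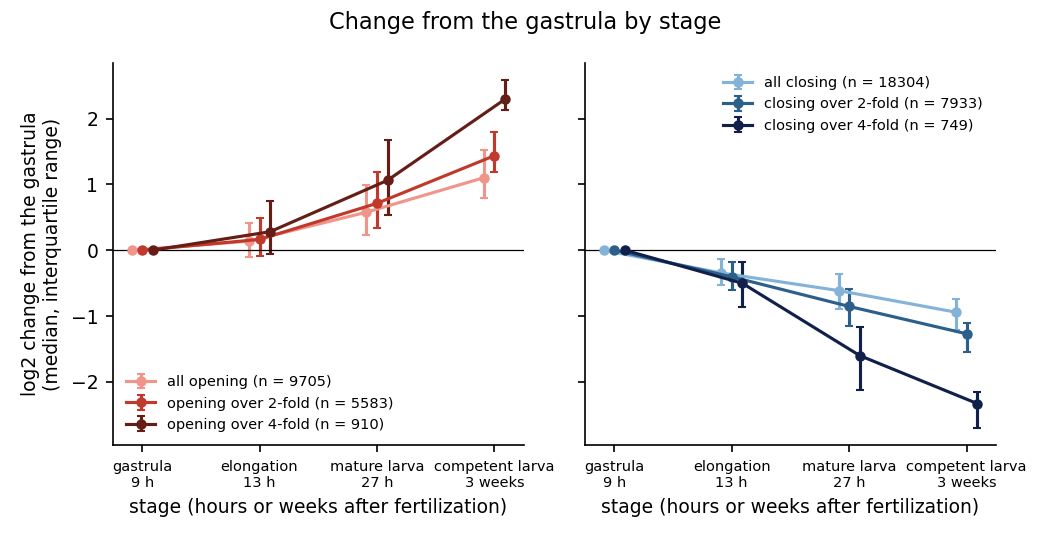
Log2 change from the gastrula mean at each stage (median as points, interquartile range as bars) for opening peaks (left) and closing peaks (right) in 3 classes of size. By the mature larva the peaks closing beyond 4-fold stand at a median of -1.60 of a final -2.33, and those opening beyond 4-fold at 1.06 of a final 2.29.

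The interval from elongation to mature larva takes its change from libraries that do not enter the net log2 change, and was tested in the same fit. Both tests use the same variance for a peak, so their calls are not independent. Over all kept peaks it gave 3662 openings (5.92%) and 2835 closings (4.58%). The peaks that opened over the span included 2761 (28.4%) that opened in this interval and 33 (0.34%) that closed in it. Those that closed over the span included 1898 (10.4%) that closed in it and 41 (0.224%) that opened. The shares were higher in larger changes, 34.2% of the peaks opening and 18.6% of those closing more than 2-fold, and 45.6% and 50.1% of those beyond 4-fold.

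The first and the last interval share gastrula or competent larva libraries with the net log2 change, and their values are given side by side. From gastrula to elongation 748 peaks opened (1.21%) and 310 closed (0.501%), and from mature to competent larva 4946 opened (7.99%) and 4532 closed (7.33%). Of the 9705 peaks opening over the span, 630 passed the test in the first interval and 3861 in the last. Of the 18304 closing peaks these were 257 and 3059. A net change could also build up with no interval passing the test, which was so for 16871 of the 28009 called peaks.

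The peaks with more than 80% of the net change in a single interval gave examples for each time of opening. OFUS_peak_53578 (scaffold 20, 2835486 to 2836622) had 161 and 91.0 normalized reads in the gastrula, 536 and 493 at elongation, 849 and 735 in the mature larva and then 581 and 577 in the competent larva. Its gastrula libraries were below all 6 others, and the first interval held a log2 change of 2.08 ± 0.22 (adjusted p = 0.000891) of the net 2.25 ± 0.22 (adjusted p = 3.32e-06). The second early example, OFUS_peak_36046 (scaffold 11, 1601586 to 1602203), had 11.7 and 36.6 in the gastrula and 49.6 and 136.7 at elongation, and its first interval did not pass the test (log2 change 1.93, adjusted p = 0.0715). Its net call (log2 change 2.01, adjusted p = 0.00545) was lost without gastrula replicate 1 (1.23, adjusted p = 0.0969) and without competent larva replicate 1 (1.902, adjusted p = 0.0775) or replicate 2 (2.12, adjusted p = 0.0574).

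OFUS_peak_31773 (scaffold 9, 5889739 to 5891523), 1785 bp wide, opened before the mature larva. It had 319 and 331 in the gastrula, 520.1 and 486 at elongation, 1974 and 1681 in the mature larva and then 1538 and 1226 in the competent larva. The second interval held 1.85 ± 0.16 (adjusted p = 8.84e-05) of a net log2 change of 2.08 ± 0.16 (adjusted p = 4.46e-07), and all 4 later libraries lay above the 4 earlier ones. At the smaller OFUS_peak_32121 (scaffold 9, 8349889 to 8350214) the elongation libraries of 21.5 and 69.2 were followed by 197 and 154 in the mature larva (log2 change 2.14, adjusted p = 0.0127). Its net call (log2 change 2.11, adjusted p = 0.00297) was lost without gastrula replicate 1 (1.51, adjusted p = 0.0696) and without competent larva replicate 2 (1.93, adjusted p = 0.0678).

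OFUS_peak_13587 (scaffold 4, 7010289 to 7011186) opened late. It had 170 and 178 in the gastrula, 149.9 and 185 at elongation, 287 and 248 in the mature larva and then 2081 and 1724 in the competent larva. The last interval held 2.83 ± 0.18 (adjusted p = 1.68e-06) of a net log2 change of 3.44 ± 0.18 (adjusted p = 5.37e-08), with the competent larva libraries far above the other 6. OFUS_peak_20992 (scaffold 6, 4923018 to 4923330) stayed between 58.0 and 113 in the 6 earlier libraries and had 1031 and 779 in the competent larva (last interval 3.03 ± 0.25, adjusted p = 7.75e-06). Gradual opening was shown by OFUS_peak_33795 (scaffold 9, 19110124 to 19110996), with 199 and 153 in the gastrula, 371 and 279 at elongation, 825 and 744 in the mature larva and then 2411 and 2208 in the competent larva, and each of its 3 intervals passed the test (log2 changes 0.88, 1.28 and 1.56).

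The closing peaks gave matching examples. OFUS_peak_14812 (scaffold 4, 15361185 to 15361357) had 154 and 189 normalized reads in the gastrula, 55.2 and 55.1 at elongation, 50.8 and 60.1 in the mature larva and then 43.4 and 46.2 in the competent larva. The gastrula libraries stood above all 6 others, and the first interval held a log2 change of -1.61 ± 0.31 (adjusted p = 0.0186). At OFUS_peak_50183 (scaffold 17, 8926892 to 8927727) the gastrula had 256 and 323 and elongation 91.9 and 79.4 (log2 change -1.74 ± 0.39, adjusted p = 0.0404), and the later libraries ranged from 38.7 to 108.

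OFUS_peak_20131 (scaffold 5, 25240676 to 25241320) closed between elongation and the mature larva. It had 843 and 666 in the gastrula, 851 and 647 at elongation, 93.3 and 83.4 in the mature larva and then 43.1 and 74.3 in the competent larva. The gastrula and elongation libraries overlapped, and the second interval held -3.06 ± 0.26 (adjusted p = 7.56e-05) of a net log2 change of -3.70 ± 0.26 (adjusted p = 2.38e-07). At OFUS_peak_35128 (scaffold 10, 10221343 to 10221533) values between 60.8 and 181 in the first 4 libraries were followed by values between 7.22 and 10.2 in the last 4 (second interval -3.35 ± 0.45, adjusted p = 0.00064).

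OFUS_peak_58954 (scaffold 25, 6189163 to 6189638) had most of its closing after the mature larva. It had 644 and 399 in the gastrula, 486 and 444 at elongation, 352 and 303 in the mature larva and then 26.4 and 54.1 in the competent larva. The last interval held -3.08 ± 0.30 (adjusted p = 2.47e-05) of a net log2 change of -3.71 ± 0.30 (adjusted p = 6.26e-07). OFUS_peak_39941 (scaffold 12, 13007263 to 13007383) was likewise between 64.3 and 168 in the 6 earlier libraries and then had 4.82 and 13.6. The gradual OFUS_peak_47101 (scaffold 15, 12671966 to 12672608) closed over the span, from 749 and 858 to 366 and 476, to 193 and 180.0, and to 31.1 and 78.3, with no overlap between successive stages, although its first interval did not pass the test (log2 change -0.94, adjusted p = 0.138).

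Not every peak moved one way. A consistent direction in all 3 intervals was shown by the stage means of 3809 opening peaks (39.2%) and 10078 closing peaks (55.1%), and by 48.8% and 67.4% of those beyond 2-fold. A call in the opposite direction in some interval was made for 197 opening and 99 closing peaks. A further 3495 peaks (5.65% of all) were called in an interval but not over the span, of which 402 opened and later closed and 371 closed and later reopened.

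Peaks whose intermediate stages lay furthest outside the range of the end stages all departed in the mature larva. OFUS_peak_36085 (scaffold 11, 1864914 to 1865788) had 76.3 and 77.2 in the gastrula, 88.0 and 57.5 at elongation, 13.4 and 5.998 in the mature larva and then 520 and 313 in the competent larva. It closed before it opened, with a log2 change of -2.84 ± 0.40 to the mature larva (adjusted p = 0.000863) and of 5.33 ± 0.40 after it (adjusted p = 3.61e-06). OFUS_peak_31265 (scaffold 9, 2143078 to 2144030) likewise reached 8.96 and 10.8 in the mature larva, from 138 and 201 in the gastrula, and had 57.8 and 36.6 in the competent larva (log2 change 2.12, adjusted p = 0.00203). All 8 lists nevertheless held a peak there, with fold enrichments of 4.28 and 3.48 in the mature larva against 3.62 and 3.48 in the competent larva, so the lists did not show the lower level.

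OFUS_peak_31011 (scaffold 9, 655958 to 656807) was highest in the mature larva. It had 110.4 and 118 in the gastrula, 254 and 201 at elongation, 709 and 549.5 in the mature larva and then 237 and 187 in the competent larva. Its net log2 change of 0.88 ± 0.22 (adjusted p = 0.00443) was smaller than the rise to the mature larva (1.46) and the fall after it (-1.56), and without competent larva replicate 1 it was 0.71 and did not pass the test (adjusted p = 0.0624). OFUS_peak_3254 (scaffold 1, 26948070 to 26948238) also rose to the mature larva, from 237 and 118 in the gastrula and 213 and 125 at elongation to 818 and 458, and then had 40.8 and 52.8 in the competent larva. Its net call (log2 change -1.83, adjusted p = 0.00096) was lost with the 4 end-stage libraries alone (adjusted p = 0.06).

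Width and level are given for the changed peaks as a description, with no test. Peaks that opened more than 2-fold had a median width of 789 bp (interquartile range 489 to 1196) and those that closed 484 bp (281 to 843), against 615 bp (353 to 1019) over all kept peaks. Of peaks up to 300 bp wide 4.48% opened and 19.2% closed more than 2-fold, and of those over 1200 and up to 2400 bp 12.5% opened and 9.13% closed. Peaks were also ranked by the mean of the elongation and mature larva libraries, which did not enter the net log2 change. Under 10 normalized reads 2.51% of peaks opened, against 18.6% over 800. Closing was most frequent between 50 and 100 (17.8%) and was 8.76% over 800. Wider and higher peaks hold more reads, and the part of depth in these shares was not tested.

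Changes were distributed over the whole assembly. On the 28 scaffolds with at least 500 kept peaks, 7.39% to 10.8% of the peaks opened and 9.92% to 16.5% closed more than 2-fold, and the median log2 change of a scaffold lay between -0.39 and -0.25. None of these 28 scaffolds had a median above 0. These are values on the authors' scale, where the median of all kept peaks was -0.32, against -0.07 with a common median. The sign of the scaffold medians therefore depends in part on the scale.

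Within scaffolds, neighbours tended to share a direction. Where the next peak lay within 5 kb of one that opened more than 2-fold, it opened too in 898 of 3624 cases (24.8%) and closed in 5.99%, against 10.2% and 13.8% after any kept peak. After a peak that closed more than 2-fold the next closed in 1322 of 4922 cases (26.9%) and opened in 4.90%. Runs of at least 2 successive peaks with the same change held 1610 of the opening peaks (28.8%) and 2308 of the closing peaks (29.1%). No share for peaks placed at random was computed, so these 2 shares alone do not show clustering. Neighbouring peaks can be parts of a single accessible region, so these counts are not independent.

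The longest runs, chosen after their values were seen, were 6 opening and 7 closing peaks. The opening run, OFUS_peak_34858 to OFUS_peak_34863, spanned 13.5 kb of scaffold 10 (7578647 to 7592110), and its summed normalized reads were 2790 and 2870 in the gastrula, 6273 and 5344 at elongation, 7805 and 6832 in the mature larva and then 10891 and 9274 in the competent larva. The sum was higher at each successive stage, with no overlap between stages, and the single peaks opened by 1.10 to 2.68 on the log2 scale. A closing run of 7 peaks on scaffold 8 (OFUS_peak_28014 to OFUS_peak_28020, 3287984 to 3305952) had sums of 13699 and 10966 in the gastrula, 11191 and 10162 at elongation, 6381 and 6129 in the mature larva and then 5406 and 4903 in the competent larva. Here the gastrula and elongation overlapped, and the break lay before the mature larva.

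The peaks called in single libraries gave a second view of the same reads, as presence or absence rather than level. Of the peaks that opened more than 2-fold, 93.6% overlapped a peak in both competent larva lists, against 33.5% of all kept peaks, and 48.8% were in both lists linked to the gastrula, against 81.7%. The closing peaks showed the reverse, with 88.3% in both gastrula-linked lists and 7.06% in both competent larva lists. When each list was given to the stage in its name, 15.7% of the opening and 57.8% of the closing peaks were in both gastrula lists, against 39.5% of all kept peaks. Under either assignment the closing peaks were in the gastrula lists more often than the opening peaks.

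The number of peaks that switched from absent to present depended on the assignment of the lists. Under the linked assignment 1556 of the 5583 opening peaks (27.9%) were in both competent larva lists and in neither gastrula list, against 3.38% of all kept peaks, and under the exchanged assignment 3404 (61.0%), against 9.11%. Of the 7933 closing peaks 5572 (70.2%) were in both gastrula lists and neither competent larva list when linked (38.7% of all kept peaks) and 3251 (41.0%) when exchanged (14.01%). The gastrula-linked lists were the longest, with 117484 and 133993 peaks, and the competent larva lists held 39906 and 73151. Among the 5 largest openings, the competent larva lists gave fold enrichments over the local background between 3.85 and 5.64 for all 5, and none of them was in any list of the gastrula or elongation. Of the 5 largest closings, 3 were in both lists linked to the gastrula, and the other 2, OFUS_peak_28781 and OFUS_peak_54753, were in neither of these and in both lists linked to elongation.

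**Figure D5:**
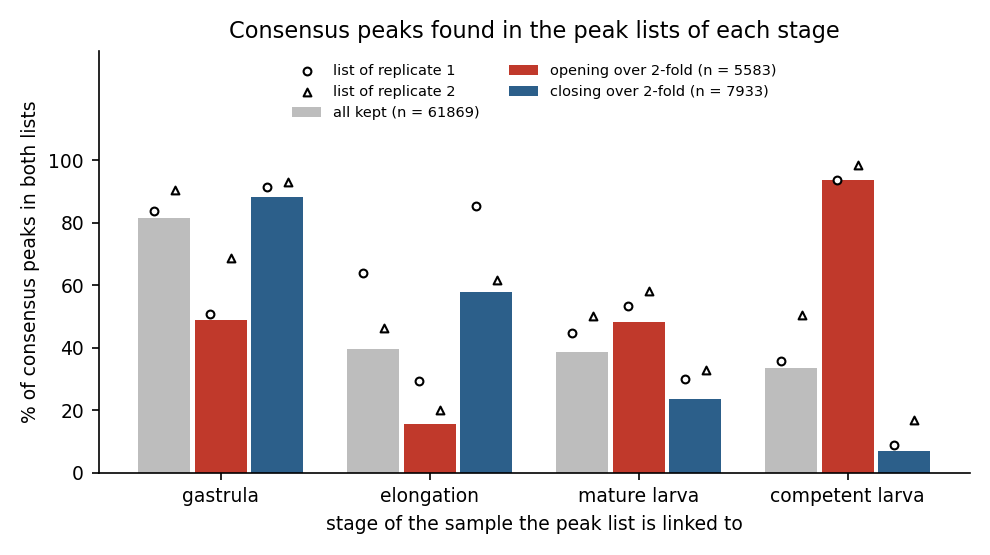
Percent of consensus peaks that overlap a peak in both lists of a stage (bars) or in each list (circle and triangle), for all kept peaks and those opening or closing more than 2-fold, by the stage of the sample to which the list is linked. The opening peaks are at 93.6% and the closing peaks at 7.06% in the competent larva, and the gastrula and elongation pairs exchange places if the names of their lists are followed.

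A value of 0 in the table did not mean that no peak was called there. Of the 1863 peaks left out because they were listed at 0 in all 8 libraries, 1820 (97.7%) overlapped a peak in at least 1 list and 258 (13.8%) in all 8, much as for the kept peaks (98.2% and 15.8%). The consensus peaks were merged from peaks called in the libraries, so the high share in at least 1 list was largely fixed in advance. Both gastrula libraries were at 0 for 1251 kept peaks, yet 78.1% of these were in both gastrula-linked lists, against 81.7% of all kept peaks. Both elongation-linked lists, which carry the gastrula name, held 39.6% of the 1251, against 39.5% of all kept peaks. Both competent larva libraries were at 0 for 1314, with 31.7% of them in both of its lists, against 33.5% of all kept peaks. At 823 peaks all 4 libraries were at 0. Only 38 of the 1251 were called as opening and 60 of the 1314 as closing, and they add little to the counts.

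The peaks that stood highest at one end while listed at 0 at the other were accordingly low. OFUS_peak_5052 (scaffold 2, 7447091 to 7447894) was at 0 in both gastrula libraries and had 23.98 and 0.676 normalized reads in the competent larva, yet all 8 lists held a peak there, with fold enrichments from 5.49 to 15.6. Its competent larva replicates were too far apart for a level to be stated. OFUS_peak_59605 (scaffold 26, 3869564 to 3869926) was at 0 in the gastrula and between 3.63 and 11.5 in the 6 later libraries. OFUS_peak_23055 (scaffold 6, 19096108 to 19096920) had 42.99 and 38.4 in the gastrula and was at 0 in both competent larva libraries, whose lists nevertheless gave it fold enrichments of 3.85 and 2.79. For OFUS_peak_19484 (scaffold 5, 20974227 to 20974710), with 19.2 and 53.8 in the gastrula and 0 in both competent larva libraries, neither competent larva list held a peak. No fold is given for these 4 peaks, since their 0 values are not a measured background.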

How the data were processed

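The ATAC-seq samples of this series cover 4 stages with 2 replicates each, which the study calls biological replicates. They were grouped by the stage and replicate number of the labels. The deposited accessibility table holds a signal per consensus peak: per the study's methods, the authors trimmed reads, mapped them with NextGenMap, removed duplicates, shifted reads for the Tn5 offset, called peaks per library with MACS2 2.2.7.1, kept those reproducible between replicates, merged them across stages and normalized the reads in them. Its genome build is not given in the sources used here. The deposited peak lists give each MACS2 peak of a library its fold enrichment, which is a ratio of its reads to local background, with its −log10 p-value and its −log10 q-value. Another 2 accessibility columns of other samples, and the expression table, were not used.

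In each library low values fell on whole multiples of what 1 read is worth (97.2% to 100% of them, tolerance 0.1 read), but over all values above 0 only 10.9% to 45.2% were, so reads are approximate and a count model served only as an alternative. One model was fitted with limma 3.58.1 in R 4.3.3 to log2(value + 1) of all 8 libraries, with a mean trend and 4 residual degrees of freedom, and tested by empirical Bayes moderation with Benjamini-Hochberg adjustment over 61869 peaks at 0.05. Fold changes are on that scale, which makes those of low peaks too small. A list peak was shared with a consensus peak at an overlap of at least 1 bp (bedtools 2.31.1). Alternatives were a pseudocount of 8, other filters, scalings and samples, edgeR 4.0.16, DESeq2 1.42.0, a replicate block, and leaving out each library.

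Peaks were named among called peaks with non-overlapping replicates and a mean of at least 50: the 5 largest changes per direction, 2 per direction and interval with over 80% of the net change there, 2 gradual ones, and 2 outside the range of the end stages. Without that minimum, 2 were named per end stage listed at 0. The members and these rules were chosen with earlier results of these data known.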

Additional observations from a re-analysis of the deposited data

How the results depend on the processing

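The number of called peaks (28009) fell to 13745 with the 4 end-stage libraries fitted alone, to 18525 with the gastrula and elongation columns exchanged, which compares elongation with the competent larva, and to 13516 with a 2-fold minimum. The share of called peaks that opened (34.6%) was 49.1% with quantile normalization, 55.0% with a common median and 60.9% with DESeq2. It was 43.01% with 4 libraries, 46.6% with exchanged columns and 41.3% with a 2-fold minimum. DESeq2 also set its own scale between the libraries, with a median log2 change of -0.03 over all peaks. The count model edgeR kept the authors' scale and gave 33.3% opening, with 7983 closings over 2-fold. Closings over 2-fold (7933) numbered 4312 with quantile normalization, 4027 with a common median, 3263 with DESeq2, 4926 with 4 libraries and 4077 with exchanged columns. Openings over 2-fold (5583) stayed within 1.5 times under every alternative run. Leaving out each library in turn gave 18935 to 23774 calls, 4879 to 6385 openings and 6914 to 8379 closings over 2-fold, and 35.1% to 41.4% opening. The low end of calls came without competent larva replicate 2 (18935) and replicate 1 (19383).

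The first, second and last interval held 14.6%, 35.9% and 49.5% of the opening peaks, and the last remained first under every alternative run. The 3 shares were 23.9%, 30.6% and 45.5% with quantile normalization, 22.7%, 32.6% and 44.7% with a common median, 21.2%, 31.7% and 47.1% with DESeq2, 4.95%, 39.6% and 55.5% with exchanged columns, and 8.22%, 32.9% and 58.8% when changes were divided on a linear scale. The last share was 50.3% with a pseudocount of 8, 50.2% with all consensus peaks kept, 51.3% without the mean trend, 54.9% over 2-fold (with 32.3% in the second interval), 48.1% with replicate 1 alone and 47.3% with replicate 2 alone (18.7% in the first interval). For closing, the last interval (37.3%) held 43.6% with a common median, 35.6% with edgeR, 24.96% on a linear scale, 35.0% with replicate 2 alone, and 46.2% with exchanged columns, where the first held 4.92% and the second 48.9%. Leaving out each library gave ranges over the 3 intervals of 12.9% to 20.4%, 31.4% to 40.3% and 45.7% to 54.8% for opening, and of 25.2% to 45.1%, 20.4% to 39.6% and 32.6% to 47.4% for closing. The causes of these shifts were not tested.

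The share of opening peaks in both gastrula lists (48.8%) was 14.5% when a list peak had to cover 50% of the consensus peak and 15.7% with exchanged lists, and that in both competent larva lists (93.6%) was 56.3% and, with a −log10 q of at least 5, 71.6%. For closing peaks the gastrula share (88.3%) was 66.2%, 71.6% and 57.8% under the 3 changes, and the competent larva share (7.06%) was 0.958% with the larger overlap. The replicate numbers were not taken to pair the libraries: no label ties a number to a batch or fertilization, and the deviations of same-numbered libraries correlated between -0.0033 (mature and competent larva) and 0.24 (gastrula and elongation), not above 0.1 for every pair of stages. A fit with the replicate number as a block gave 29366 calls, and the last interval then held 48.9% of the opening peaks. Over the 28 named peaks and 532 alternatives, 511 kept direction and call, 20 lost the call at 10 peaks (adjusted p up to 0.929), and 1 reversed: OFUS_peak_31011 had a log2 change of -0.10 with exchanged columns. Depth limits the low peaks most, and with 2 libraries per stage the p-values rest on a variance shared across peaks and stages.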
